A study of Mus musculus with 24 samples.

Results

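Hepatoblastoma tissue (HB) was compared with the non-tumour liver lying beside the tumours (titled BDCA_Normal, where BDCA is not explained in the labels). The comparison used 12 of the 24 oligonucleotide arrays of the series, the 6 titled HB and the 6 titled BDCA_Normal, chosen by their titles, and it covered the 14086 genes that passed a filter on low intensity out of the 18193 with a probe set of their own. The series also holds 6 arrays of hepatocellular carcinoma (HCC) and 6 of normal liver from vehicle controls (Vehicle_Normal), which are used here for reference levels. All samples came from B6C3F1 mice, and the protocols describe a gavage bioassay of Ginkgo biloba extract in corn oil at 0, 200, 600 and 2000 mg/kg in both sexes, given 5 days a week for 2 years. The titles name no dose, sex, age or animal for any sample, so the treatment of each HB and BDCA_Normal sample is not known here, and nothing in the labels ties replicates to different animals. The p-values therefore measure only the sample-to-sample spread, which may be partly technical.

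Hepatoblastoma is a liver tumour of embryonal type whose cells resemble immature liver progenitors, and in mice it usually arises inside a hepatocellular tumour. Activation of beta-catenin, the transcriptional arm of Wnt signalling, is its best known molecular feature. Mature hepatocytes, by contrast, are defined by a network of transcription factors that includes HNF4A and C/EBP alpha and that maintains the secreted plasma proteins, the cytochromes P450 and the enzymes of nitrogen, bile acid and fuel metabolism.

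The promoters of genes at both ends of the comparison are shown first, with motifs linked to HNF4A and to the beta-catenin pathway. Each sequence is the 250 bases before a gene's annotated start in RefSeq (GRCm38.p6), 5' to 3' on the gene's strand. Capitals mark matches, on either strand, to the motif named for that gene only, and matches to the other searched motifs are not marked. Cyp2c37 (chr19:39992174-39992423, plus strand), a cytochrome P450 gene, held CAAAGTC, an HNF4 type motif, starting 184 and 116 bases before the start. Tnfrsf19 (chr14:61037988-61038237, minus strand), a Wnt target, held ATCAAAG, the TCF/LEF motif, at this start and not at a second tabled start (chr14:61046856-61047105). Hoxd8 (chr2:74704365-74704614, plus strand), a homeobox gene, held the motif as the reverse complement at a pair of places.
Cyp2c37: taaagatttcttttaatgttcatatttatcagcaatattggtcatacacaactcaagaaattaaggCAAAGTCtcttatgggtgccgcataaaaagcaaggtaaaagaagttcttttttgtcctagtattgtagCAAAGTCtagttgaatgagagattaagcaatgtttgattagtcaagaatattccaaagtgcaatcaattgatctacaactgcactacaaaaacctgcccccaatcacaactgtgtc
Tnfrsf19: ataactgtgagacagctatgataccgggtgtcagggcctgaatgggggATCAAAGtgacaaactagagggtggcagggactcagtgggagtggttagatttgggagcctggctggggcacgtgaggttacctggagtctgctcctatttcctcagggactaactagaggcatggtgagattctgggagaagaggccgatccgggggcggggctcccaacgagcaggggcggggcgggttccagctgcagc
Hoxd8: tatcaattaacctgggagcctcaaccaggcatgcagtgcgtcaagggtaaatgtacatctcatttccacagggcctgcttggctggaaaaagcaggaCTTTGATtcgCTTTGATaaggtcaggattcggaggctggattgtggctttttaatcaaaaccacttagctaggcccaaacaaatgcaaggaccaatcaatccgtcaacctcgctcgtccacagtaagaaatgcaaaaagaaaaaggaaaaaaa

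These 3 promoters were picked to show a match and do not stand for their groups. The HNF4 type motif was found, on either strand, in 12% of 415 genes that fell by at least 16-fold, in 5.80% of 207 genes that rose by at least 16-fold, in 4.25% of 11296 tested genes with a tabled promoter, in 4.33% of all 27025 genes in the table and in 8 of 27 cytochrome P450 genes (29.6%). Among the other lists searched it was found in 3 of 15 plasma protein genes (20%), in 0 of 24 complement and coagulation genes, in 0 of 13 apolipoprotein genes and in 2 of 12 Wnt targets (16.7%). The TCF/LEF motif was also found in 2 of 12 Wnt targets (16.7%), in 3.86% of the genes that rose by at least 16-fold, in 4.82% of those that fell by as much and in 2.97% of the tested genes. Of all genes called higher 2.9% held it, and of all called lower 3.45%. The TCF/LEF and HNF4 type motifs share the letters CAAAG, so a stretch of sequence can hold both. A match describes these letters in this window and is no evidence of a bound factor.

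Intensities were on a linear scale after MAS5 processing, with every array scaled to a trimmed mean of 500, and differences are given as log2 of intensity plus 16. Between HB and BDCA_Normal, 7964 of 14086 genes (56.5%) passed an adjusted p of 0.05 in limma, 4810 of them higher in HB (34.1%) and 3154 lower (22.4%). In 4572 genes (32.5%) no HB array overlapped any BDCA_Normal array, with 2688 higher (19.1%) and 1884 lower (13.4%). The split by direction depended on the scaling. The median of all genes was 0.28 in the deposited scale, where 60.4% of called genes were higher, against 49.0% after quantile normalization, 45.1% after centring each array on the median of the tested genes and 31.4% after centring on the median of all probe sets. The largest changes were mostly falls, with 525 genes lower by at least 16-fold (3.73%) and 293 higher (2.08%).

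**Figure D1:**
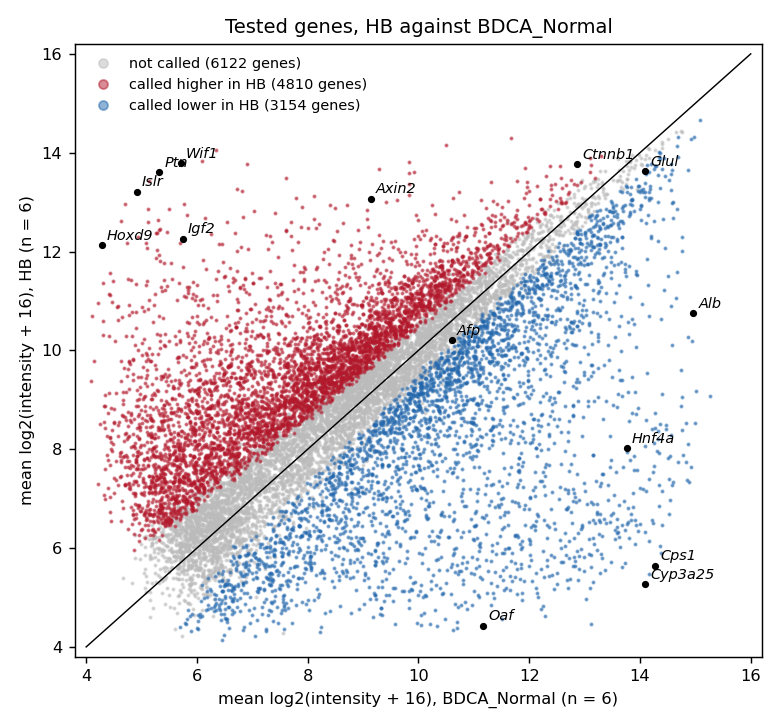
Mean log2(intensity + 16) of each of the 14086 tested genes in BDCA_Normal (x axis, n = 6) and HB (y axis, n = 6), with genes called higher in HB in red, called lower in blue and not called in grey; the line marks equal levels. Hoxd9, Islr, Ptn and Wif1 lie at the upper left, near background in BDCA_Normal and bright in HB, and Cyp3a25, Cps1 and Oaf lie at the lower right.

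The arrays themselves also differed between the groups. Median intensity was 165 ± 20.8 in HB and 102 ± 25 in BDCA_Normal (SD, n = 6 each; two-sided exact permutation test, p = 0.00433, adjusted over 5 measures 0.0216), the share of probe sets above the filter value of 66.3 was 67% ± 3.37 against 57.9% ± 5.32 (exact p = 0.0108, adjusted 0.0253), and the 100 brightest probe sets took 6.31% ± 1.03 against 8.24% ± 1.09 of the summed intensity (exact p = 0.0152, adjusted 0.0253). The 3' to 5' log2 ratios of Gapdh (1.37 ± 0.226 and 1.69 ± 0.408) and Actb (0.251 ± 0.100 and 0.390 ± 0.241), which reflect RNA integrity, did not pass (exact permutation test, adjusted p = 0.152 and 0.227). The part of these differences in the results was not tested. Tissue pieces are mixtures, so fewer cells of a type and less RNA per cell cannot be told apart in what follows.

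Among the 6 HB samples, replicates 4 and 5 stood apart in liver genes. Of the 525 genes that fell by at least 16-fold, 322 had both of these arrays above the other 4 HB arrays, and the median level of the 525 genes was 7.51 and 7.64 in them (log2), 5.37 to 6.07 in the other HB arrays and 11.89 to 12.5 in BDCA_Normal. Among the 293 genes that rose by at least 16-fold, only 23 had both arrays below the other 4, and the medians of the 6 HB arrays lay within 10.84 to 11.15. Without replicates 4 and 5, 4455 genes were higher and 3032 lower. One BDCA_Normal sample, replicate 6, carried Xist, which coats the inactive X chromosome, at 10449 against 7.47 to 97.9 in the other 5, and the Y-linked Eif2s3y at 9.46 against 1735 to 2669. The 6 HB arrays read 10.3 to 252 for Xist and 1187 to 3200 for Eif2s3y, so 1 BDCA_Normal sample differed from the remaining 11 arrays in its sex-linked transcripts.

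The largest rises in HB were in genes close to background in adjacent liver. Islr, an immunoglobulin-superfamily protein containing leucine-rich repeats, read 6595 to 12045 in HB (median 10240) and 3.77 to 32.8 in BDCA_Normal (median 14.7), a rise of 8.30 ± 0.43 on the log2 scale (SE; limma adjusted p = 3.26e-14). Ptn, the secreted growth factor pleiotrophin, read 9025 to 18665 in HB (median 12604) and 10.1 to 41.1 in BDCA_Normal, a rise of 8.29 ± 0.49. Both genes were high in each HB array, and their lowest HB value was more than 100 times their highest BDCA_Normal value. Fxyd6, a regulator of the sodium pump, rose by 8.01, Pla2g2a, a secreted phospholipase, by 8.27, Dner, a transmembrane protein with EGF-like repeats that acts on Notch, by 7.74, and Htra1, a secreted serine protease, by 7.73. Speer4cos also rose, by 8.28.

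Genes selected for the smallest error rather than the largest fold included Tpbg, a membrane protein of trophoblast and tumour cells, which read 4982 to 8081 in HB (median 7503) and 31.0 to 54.0 in BDCA_Normal and rose by 6.92 ± 0.24 (limma adjusted p = 2.82e-17). Pla2g5, another secreted phospholipase, rose by 7.42 ± 0.32, Shisal1 by 6.05 and Speer4a by 7.13. Gbx2, a homeobox gene of the embryonic brain, and Slc14a1, a urea transporter, were selected for their difference from HCC, and against BDCA_Normal they rose by 7.08 ± 0.32, from a median of 26.1 to 4770, and by 7.34 ± 0.48. Where 1 group lies near background the size of the fold depends on the added constant: 88 of the 191 named genes that were called had a median below the filter value in the lower group. Islr rose by 9.46 with a constant of 1 and by 6.91 with 64, and Hoxd9 by 10.0 and 6.06.

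The largest fall was in Cyp3a25, a cytochrome P450 of drug and steroid oxidation. It read 10428 to 23853 in BDCA_Normal (median 18419) and 0.457 to 235 in HB (median 9.18), a difference of -8.83 ± 0.50 (limma adjusted p = 1.34e-13). Cps1, the first enzyme of the urea cycle, fell from a median of 20904 to 13.9 and differed by -8.62 ± 0.69, with 1 HB array, replicate 4, at 1234 and the other 5 at 0.722 to 24.2. Orm1, an acute-phase plasma protein, differed by -8.68, Upp2, a uridine phosphorylase of liver, by -8.67, Mat1a, the liver enzyme of S-adenosylmethionine synthesis, by -8.48, and Pck1, the key enzyme of gluconeogenesis, by -8.04. Apcs, the serum amyloid P component, differed by -8.31, Cyp2a12 by -8.06, Cyp4a14 by -8.06 and Hrg, histidine-rich glycoprotein, by -8.02. These genes were selected for ranges that do not overlap.

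**Figure D2:**
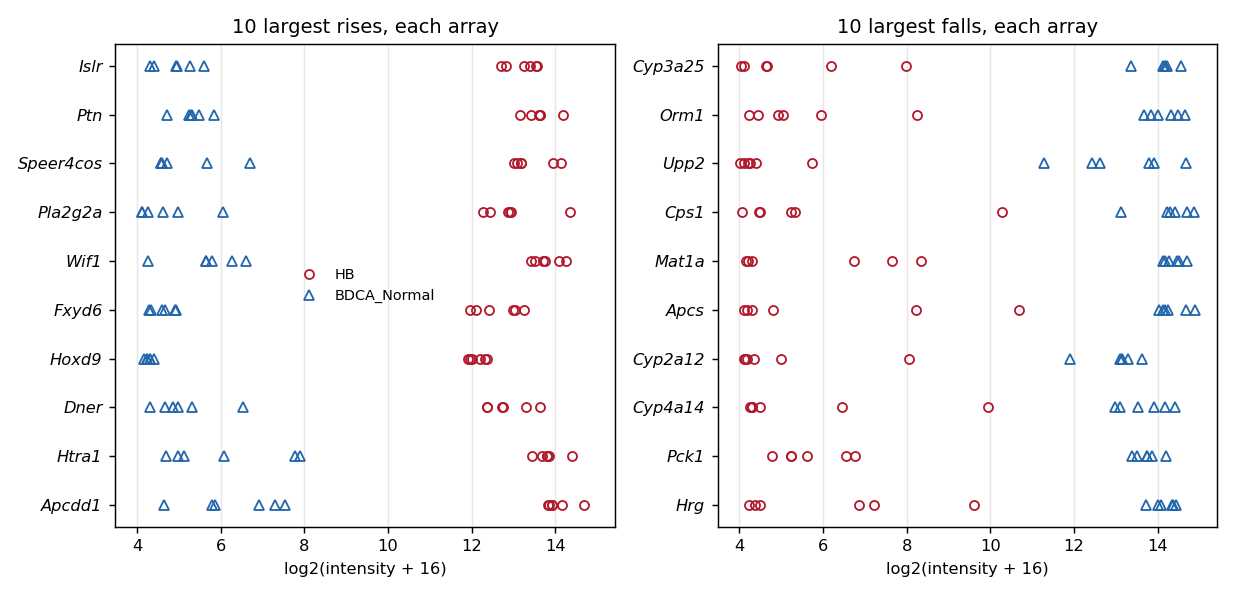
Log2(intensity + 16) in each HB array (red circles) and each BDCA_Normal array (blue triangles) for the 10 genes with the largest rises (left) and the 10 with the largest falls (right). HB points form tight clusters in the rises, such as Hoxd9 at 3843 to 5263 before the log, and spread widely in the falls, such as Apcs at 1.15 to 1625.

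The falls with the smallest error relative to their size were in genes low in HB, and in all of them but Ceacam1 every HB array was under the filter value, where the added constant compresses the spread. Oaf, a secreted protein made by hepatocytes, read 1661 to 3116 in BDCA_Normal and 3.78 to 8.01 in HB, a difference of -6.75 ± 0.23 (limma adjusted p = 2.82e-17). Slc47a1, an exporter of organic cations, differed by -6.93 ± 0.25, Ugt2a3, a glucuronosyltransferase, by -7.67 ± 0.27, Abcc6, a transporter of the hepatocyte membrane, by -5.74 ± 0.22, and Ceacam1, a cell adhesion protein, by -6.54 ± 0.26.

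Wnt target genes were higher without exception: 19 of 19 tested members rose, with a median of 3.93 beside 0.28 for all genes and 34.1% of all genes called higher, and in 14 of the 19 (73.7%, beside 19.1% of all genes) the groups did not overlap. The list had been used on these data before, so its direction is not independent evidence. Wif1, a secreted Wnt inhibitor, read 10848 to 19478 in HB and 3.11 to 82.1 in BDCA_Normal and rose by 8.08 ± 0.47 (limma adjusted p = 2.31e-13). Apcdd1, a membrane inhibitor of Wnt, rose by 7.71 ± 0.53. Nkd1, an intracellular feedback inhibitor, rose from a median of 206 to 4812, or by 4.63 ± 0.30, and Notum, which inactivates Wnt ligands, by 4.35. Axin2, the scaffold of the beta-catenin destruction complex that is itself a target, read 7883 to 9511 in HB and 300 to 1509.5 in BDCA_Normal, a rise of 3.93 ± 0.45. The HB values of Axin2 covered a narrow range, and all lay above every BDCA_Normal value.

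The transcription factors Lef1 and Sp5 rose by 5.74 and 5.12, the receptor Tnfrsf19 by 4.82 ± 0.36, the growth factor Bmp4 by 5.69 and the cyclin Ccnd1 by 2.86. The inhibitors Dkk2, Dkk1 and Dkk4 rose by 4.00, 1.64 and 1.24. Lgr5, a stem cell receptor for R-spondins, rose by 2.61 ± 0.90 (limma adjusted p = 0.0156) but overlapped, with 538 to 1715 in HB and 3.14 to 2189 in BDCA_Normal, and its adjusted p became 0.0528 without BDCA_Normal replicate 1 and 0.0530 without BDCA_Normal replicate 3. Leaving out HB replicate 4 moved the list's median to 3.42.

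Of 28 tested components of the Wnt pathway 15 were higher (53.6%, beside 34.1% of all genes) and 5 lower (17.9%, beside 22.4%). Their median of 0.72 became 0.33 after quantile normalization and 0.08 with centring on all probe sets. In 2 of the 28 every BDCA_Normal array was under the filter value, and 1 of these was called higher. Ctnnb1, which encodes beta-catenin, rose by 0.91 ± 0.15 from a median of 7748 to 13775 without overlap (limma adjusted p = 8.89e-06), although its adjusted p was 0.318 after centring on all probe sets. Among receptors, Fzd6 and Fzd3 rose by 3.69 and 2.46 and Fzd8, Fzd4 and Fzd5 differed by -3.56, -1.76 and -1.13. The co-receptor Lrp5 differed by -1.99 ± 0.31, while Lrp6 did not pass the test. Pygo1, a nuclear partner of beta-catenin, rose by 2.83, and the ligands Wnt5a and Wnt5b by 3.44 and 1.77.

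Glul, glutamine synthetase, a Wnt-dependent enzyme of the hepatocytes around the central vein, did not follow the Wnt list. It read 8764 to 25343 in HB (median 11548) and 8382 to 31738 in BDCA_Normal (median 19294), a difference of -0.46 ± 0.28 (limma adjusted p = 0.166), and the ranges overlapped widely. Its adjusted p ranged down to 0.00757 with centring on all probe sets, while quantile normalization gave a difference of 0.17 in the other direction, which did not pass, and it was also below 0.05 without HB replicate 4 (0.0377) and without BDCA_Normal replicate 3 (0.0354). Of the 14 tested pericentral genes 11 fell (78.6%, beside 22.4% of all genes) and 2 rose (14.3%, beside 34.1%). Cyp2e1, the ethanol-oxidising P450, fell by 7.30, Cyp2c50 by 6.77 and Gulo, an enzyme of vitamin C synthesis, by 5.74. The rises were Axin2 and the repressor Tbx3 (1.57). All 12 tested periportal genes fell (100%, beside 22.4% of all genes), with a median of -6.26. In 2 of the 12 every HB array was under the filter value.

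Among the 13 Hox genes tested, those that rose belonged to the HoxD cluster. The genes Hoxd9, Hoxd8, Hoxd10 and Hoxd11, which pattern limbs and the posterior body axis, read 3843 to 5263, 4439 to 5944, 1116 to 3218 and 393 to 3957 in HB, and none exceeded 39.1 in BDCA_Normal. They rose by 7.84 ± 0.30, 7.36 ± 0.40, 6.33 ± 0.34 and 5.56 ± 0.51 (limma adjusted p at most 1.07e-09), and Hoxd3 rose by 2.58. In all 5 every BDCA_Normal array was under the filter value, so they were tested only because other arrays were brighter. Hoxa3, Hoxb3 and Hoxb4 fell, by 1.25, 1.26 and 1.40, while Hoxd12, at 0.11, and the other 4 tested members did not pass. Of the 38 Hox genes listed, 20 were below the filter and 5 were not analysed here, so the median of 0.11 covers 13 genes. It moved between -0.15 and 0.42 when single arrays were left out. Centring on all probe sets gave -0.53, quantile normalization -0.41 and a stricter intensity filter, which left 6 genes, 5.94.

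Of 16 tested genes of embryonic growth and imprinting, 10 rose (62.5%, beside 34.1% of all genes) and none fell (median 1.99). In 1 of the 16 every BDCA_Normal array was under the filter value, and it was called higher. Igf2, the fetal insulin-like growth factor, read 2008 to 10711 in HB and 5.16 to 98.3 in BDCA_Normal, a rise of 6.52 ± 0.55 (limma adjusted p = 1.95e-10). Cdkn1c, an imprinted inhibitor of the cell cycle, rose by 5.08 ± 0.47, Sox4 and Sox11, transcription factors of embryonic progenitors, by 3.61 and 3.88, the growth factor Mdk by 3.47, and the imprinted genes Grb10 and Mest by 2.70 and 2.41. Mycn rose by 1.02 ± 0.32 and Myc by 1.77 ± 0.32, both with overlap. Mycn had an adjusted p of 0.0852 after quantile normalization.

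The oncofetal markers did not separate HB from adjacent liver. Afp, alpha-fetoprotein, read 289 to 9107 in HB (median 953) and 1022 to 2074 in BDCA_Normal (median 1558), a difference of -0.39 ± 0.66 (limma adjusted p = 0.632), and 2 HB arrays, replicates 4 and 5, supplied the highest levels; without them it differed by -1.44 (adjusted p = 0.0366). Gpc3, glypican 3, differed by 1.40 ± 0.69 (adjusted p = 0.0854), with 129 to 1967 in HB, and by 0.42 without those 2 arrays. Dlk1, a marker of fetal hepatoblasts, differed by 0.29 ± 0.43 (adjusted p = 0.591), although the mean of its probe sets differed by 1.29 (adjusted p = 0.00837). The HCC arrays had medians of 22106 for Afp and 7667 for Gpc3, and HB lay below them by 3.32 and 4.06 on the log2 scale (limma adjusted p = 0.000314 and 4.69e-05).

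**Figure D3:**
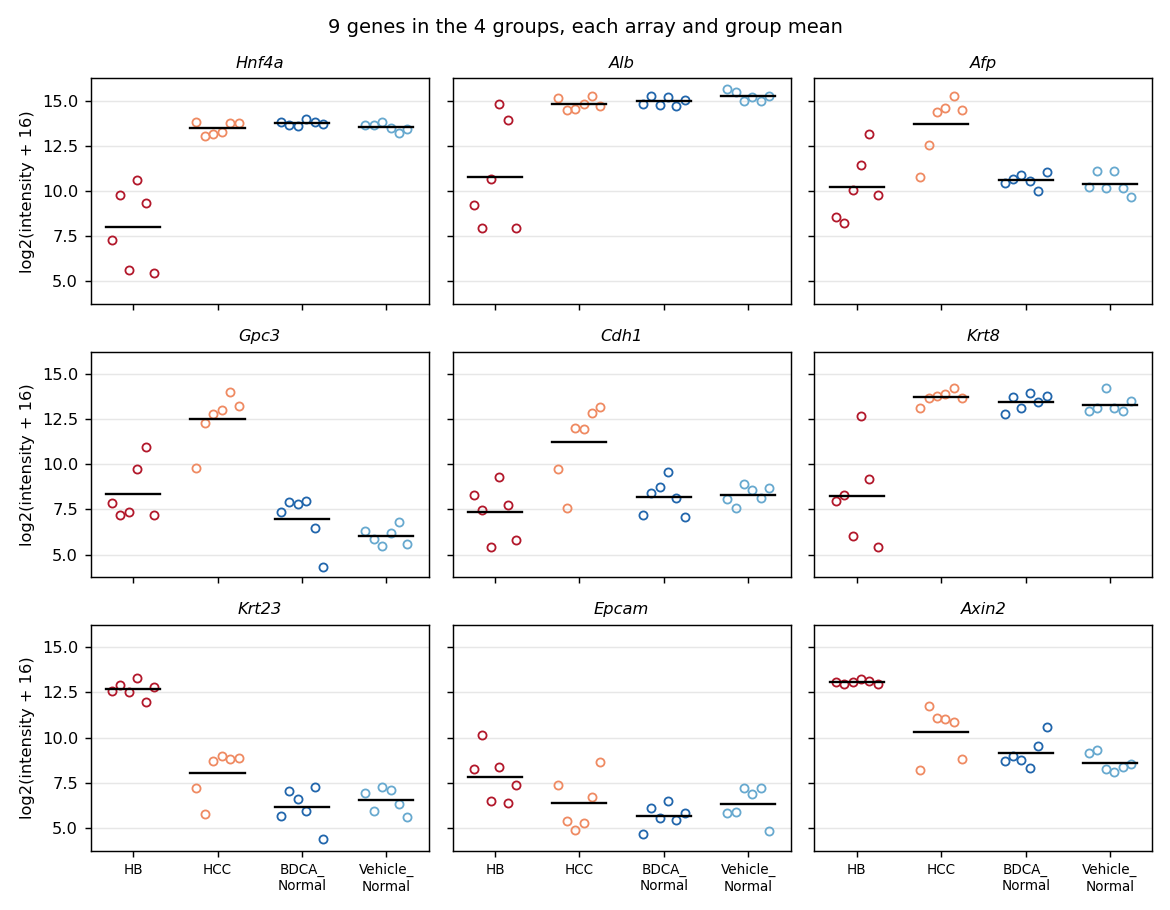
Log2(intensity + 16) of 9 genes in every array of HB, HCC, BDCA_Normal and Vehicle_Normal (circles) with the group mean (bar). Afp, Gpc3 and Cdh1 are highest in HCC; Hnf4a, Alb and Krt8 are low and scattered in HB; Krt23 and Axin2 are highest in HB.

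Among epithelial genes, keratins of hepatocytes fell, Krt8 from a median of 12233 to 265 (-5.20 ± 0.70) and Krt18 from 9659 to 348 (-4.18 ± 0.66; limma adjusted p = 6.00e-07 and 7.54e-06), with 1 HB array at 6485 and 8320 for them. Krt23 rose by 6.53 ± 0.49, from a median of 62.0 to 6579, and Krt7, a keratin of bile ducts, by 3.28 ± 0.54. Of 9 tested biliary and progenitor genes 7 rose (77.8%, beside 34.1% of all genes), including Cd24a (3.67), Sox9 (2.85) and Epcam (2.16), and the groups overlapped for Sox9 and Epcam. Krt19 rose by 1.46 ± 0.51 (limma adjusted p = 0.0166), but its adjusted p was 0.0566 without BDCA_Normal replicate 5, 0.0554 without HB replicate 2 and 0.136 after quantile normalization. Cdh1, E-cadherin, differed by -0.85 ± 0.73 (adjusted p = 0.330), whereas HB lay 3.71 below HCC (adjusted p = 0.000262). Vim, the intermediate filament of mesenchymal cells, rose by 2.62 ± 0.35.

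Of 19 neural genes listed, 12 were tested and 7 were below the filter. In 4 of the 12 every BDCA_Normal array was under the filter value, so they entered the test only through brighter arrays of other groups. Where those arrays were HB, this favours a rise. The count of 12 rises therefore describes the list without supporting a direction for it. Prph, peripherin of peripheral neurons, read 3720 to 9049 in HB and 2.09 to 43.6 in BDCA_Normal, a rise of 7.11 ± 0.36 (limma adjusted p = 1.84e-14). Tubb3 rose by 4.88, Gap43, a growth cone protein, by 4.01 and Uchl1, a neuronal ubiquitin hydrolase, by 3.85. The groups did not overlap in these 4 genes, but the range within HB was wide for Tubb3, at 55.2 to 2208.

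Of 26 tested matrix genes 12 were higher (46.2%, beside 34.1% of all genes) and 4 lower (15.4%, beside 22.4%). The list's median of 0.62 became -0.02 with centring on all probe sets. In 2 of the 26 every BDCA_Normal array was under the filter value, and both were called higher. Besides Islr, the proteoglycan Spock2 rose by 7.37 ± 0.57, the gelatinase Mmp2 by 5.83 ± 0.52, the thrombospondins Thbs2 and Thbs1 by 4.95 and 4.45, and elastin, Eln, by 3.57. The collagen gene Col1a1 rose by 2.38, but Col1a2 (-0.08) and Col3a1 (-0.62) did not pass. Fibronectin, Fn1, fell by 3.86, the proteoglycan Dcn by 2.89 and Postn by 2.46.

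Of 30 tested growth factor and receptor genes 14 were higher (46.7%, beside 34.1% of all genes) and 7 lower (23.3%, beside 22.4%). The list's median of 0.77 became 0.13 with centring on all probe sets. In 2 of the 30 every BDCA_Normal array was under the filter value, and both were called higher. Tgfb2 rose from a median of 17.0 to 2615 (6.24 ± 0.39), Bmp7 by 4.33 ± 0.47, and the receptor genes Fgfr1, Pdgfra, Kit and Erbb2 by 2.10, 2.48, 2.48 and 2.13. The receptor genes Egfr, Fgfr4 and Erbb3 fell by 4.14, 3.08 and 3.28 ± 0.28, as did Igf1, the growth hormone target made by liver, by 3.35 and Fgf1 by 2.72. Met, the receptor of hepatocyte growth factor, differed by -0.09 and did not pass.

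Output genes of the MAPK pathway were higher in 9 of 14 tested members (64.3%, beside 34.1% of all genes) and lower in none (median 1.55). In 2 of the 14 every BDCA_Normal array was under the filter value, and both were called higher. The ETS factors Etv5 and Etv4 rose by 5.31 ± 0.39 and 3.48 ± 0.46, and the feedback inhibitors Dusp4 and Spry2 by 3.94 and 3.58, all without overlap, while Dusp6 (0.64) and Egr1 (-0.18) did not pass. Among 18 tested genes of the Notch and hedgehog pathways, 10 were higher (55.6%, beside 34.1% of all genes) and 1 was lower (5.56%, beside 22.4%). In 2 of the 18 every BDCA_Normal array was under the filter value, and 1 of these was called higher. Shh, the hedgehog ligand, rose by 4.75 ± 0.42 from at most 17.7 to 117 to 1121, its receptor Ptch1 by 1.69 ± 0.19, the transducer Smo by 1.82 and Gli2 by 2.59. The Notch target Hey1 rose by 4.04 and the ligand Dll1 fell by 1.78.

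Mitosis genes rose in 23 of 23 tested members (median 2.93), beside 34.1% of all genes, and 13 of them (56.5%, beside 19.1% of all genes) had separate ranges. In 7 of the 23 every BDCA_Normal array was under the filter value. Top2a, the topoisomerase of dividing cells, read 182 to 2112 in HB and 4.92 to 123 in BDCA_Normal, a rise of 3.76 ± 0.54 (limma adjusted p = 1.67e-06). Mki67 rose by 3.36 ± 0.57 from a median of 281 to 5418. The mean level of the 23 genes was 7.40 in HB replicate 4 and 8.65 to 10.01 in the other HB arrays, against 5.87 to 6.98 in BDCA_Normal. DNA replication genes rose in 15 of 23 members (65.2%, beside 34.1% of all genes), with Rfc3 at 3.83 and the helicase subunits Mcm6 and Mcm3 at 2.88 and 2.62. Rrm2 (0.05), Tk1 (-0.71) and E2f1 (-0.06) did not pass.

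Of 17 chromatin and methylation enzymes 14 rose (82.4%, beside 34.1% of all genes) and none fell (median 1.37), and 12 did not overlap (70.6%, beside 19.1%). Ezh2 and Jarid2, of Polycomb complex 2, rose by 2.14 ± 0.29 and 2.02 ± 0.30, Uhrf1, which maintains DNA methylation, by 2.27, Dnmt1 by 1.37 and Tet3 by 2.09, while Dnmt3b (0.00) did not pass. Of 14 p53 targets 6 rose (42.9%) and 2 fell (14.3%), near the 34.1% and 22.4% of all genes, and the list's median of 0.57 became -0.06 with centring on all probe sets. Phlda3 rose by 5.07 ± 0.34, Pmaip1 by 2.81 and Cdkn1a by 2.03, Fas fell by 2.91, and Mdm2 (0.53) did not pass.

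**Figure D4:**
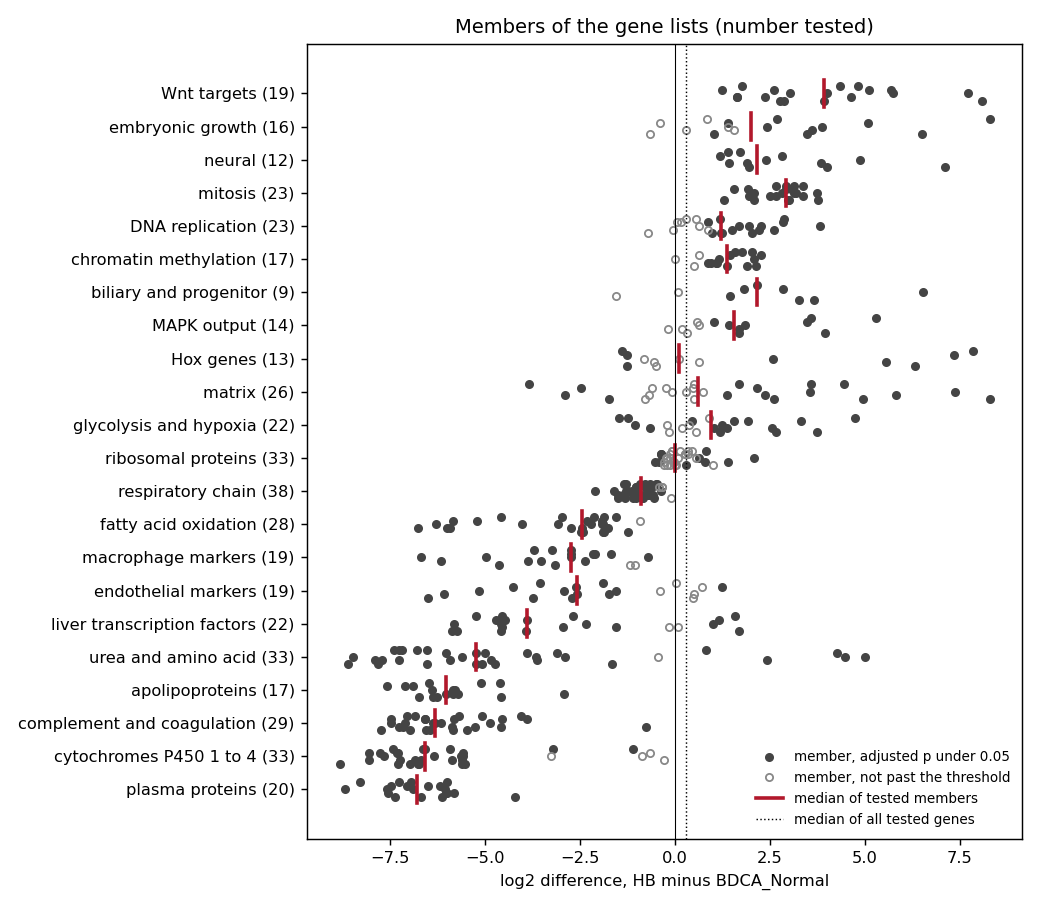
Log2 difference of HB minus BDCA_Normal for each tested member of 22 gene lists (filled, past an adjusted p of 0.05; open, not past it), with the list's median (red bar) and the median of all tested genes (dotted line, 0.28). Wnt target, neural and mitosis members all lie to the right of 0, and plasma protein, apolipoprotein and complement members all lie to its left.

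The transcription factors that maintain hepatocytes fell in 16 of 22 tested members (median -3.90), beside 22.4% of all genes called lower. Hnf4a read 12434 to 16277 in BDCA_Normal and 28.7 to 1543 in HB (median 389), a difference of -5.73 ± 0.58 (limma adjusted p = 6.39e-09). Cebpa and Cebpb differed by -4.54 ± 0.27 and -3.92 ± 0.25, the xenobiotic receptors Nr1i3 and Nr1i2 by -5.82 ± 0.28 and -4.56 ± 0.29, the bile acid receptor Nr1h4 by -3.89 and Ppara, which governs fat oxidation, by -4.70. 4 members rose: Prox1, a homeobox factor of the liver bud, by 1.69, Gata6 by 1.17, Foxa2 by 1.01 and Tbx3 by 1.57, and Onecut1 (0.08) did not pass. Foxa2 and Foxa3, related factors of the same family, went opposite ways, with Foxa3 at -4.48.

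The secreted products of hepatocytes fell without exception: 20 of 20 plasma protein genes (median -6.80; 22.4% of all genes were lower), 29 of 29 complement and coagulation genes (median -6.33) and 17 of 17 apolipoprotein and lipoprotein genes (median -6.02). Masp1, a protease of the lectin pathway, read 6194 to 10246 in BDCA_Normal and 25.9 to 176 in HB, a difference of -6.56 ± 0.28 (limma adjusted p = 1.73e-15). Coagulation factors F7 and F12 differed by -5.88 and -6.46, Lcat, which esterifies plasma cholesterol, by -6.38 ± 0.26, Apoa5 by -7.59 and Itih1 by -6.50 ± 0.39. Alb, the albumin gene, read 229 to 28758 in HB and 26301 to 39396 in BDCA_Normal, a difference of -4.20 ± 0.78 (limma adjusted p = 6.25e-05), and the groups overlapped.

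The HB values of Alb were 574, 231, 1630, 28758, 15782 and 229 in replicates 1 to 6, so replicate 4 reached the adjacent liver, replicate 5 lay below its lowest array and the other 4 were far lower. Without replicates 4 and 5 the difference was -6.01, that of the plasma protein list -8.15 and that of the apolipoproteins -7.42. The level in these 2 arrays was unequal between genes. Among the 525 genes that fell by at least 16-fold, replicate 4 read at a median of 3.72% of the BDCA_Normal median and replicate 5 at 4.28%, against 0.530% to 1.06% in the other 4 arrays. Only 9 of these genes in replicate 4 and 11 in replicate 5 reached 25% of it. Apoa1, the main protein of HDL, read 18684 and 13996 in replicates 4 and 5 and 132 to 672 in the others, Ttr, transthyretin, 10691 and 9657 against 31.0 to 629, and Igfbp1, an IGF binding protein, 8594 and 8303 against 43.7 to 204, whereas Otc, the urea cycle enzyme, did not exceed 59.2 in any HB array. These genes were picked after their values were seen.

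**Figure D5:**
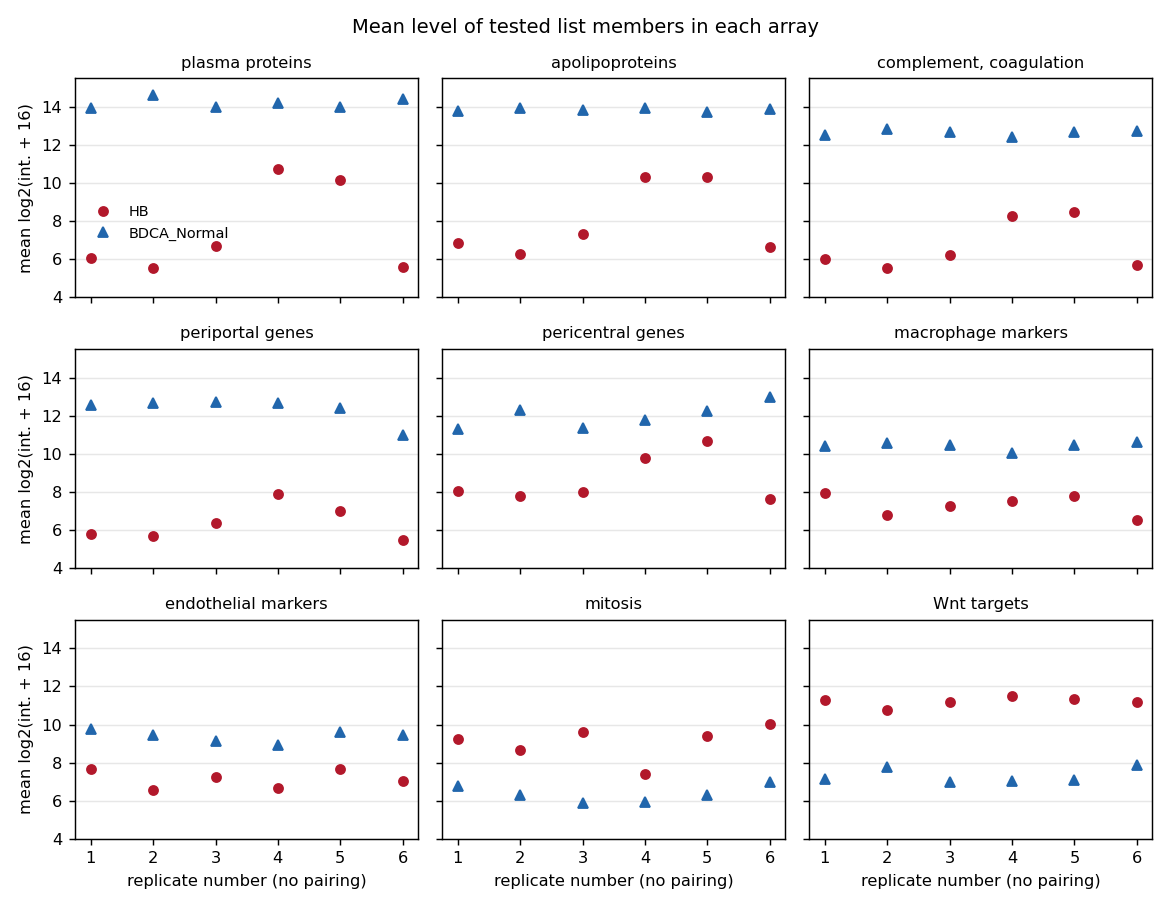
Mean log2(intensity + 16) of the tested members of 9 gene lists in each HB array (red circles) and each BDCA_Normal array (blue triangles), by replicate number, which does not pair the arrays. HB replicates 4 and 5 lie above the other HB arrays for plasma proteins (10.73 and 10.16 against 5.52 to 6.72) but within their range or close to it for macrophage and endothelial markers.

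The contrast between cell types in the same arrays was measured. For apolipoproteins replicates 4 and 5 had means of 10.32 and 10.31 against 6.27 to 7.34 in the other HB arrays, and for pericentral genes 9.79 and 10.68 against 7.63 to 8.03. For macrophage markers they had 7.5 and 7.79 against 6.55 to 7.92, and for endothelial markers 6.69 and 7.68 against 6.54 to 7.66. BDCA_Normal lay at 10.04 to 10.60 and 8.92 to 9.76 for the last pair of lists. In these list means, hepatocyte transcripts separated these 2 samples from the other HB samples. Macrophage and endothelial transcripts did so by little or not at all. The genes that fell by at least 16-fold read at a median of only 3.72% and 4.28% of the BDCA_Normal median in replicates 4 and 5. A contribution of that size need not show in the macrophage and endothelial means. The part of adjacent liver in these samples was not tested.

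Drug metabolism fell broadly. Of 33 tested cytochromes P450 of families 1 to 4, 29 were lower (87.9%, beside 22.4% of all genes) and none higher (median -6.58), and all 29 were without overlap, beside 13.4% of all genes. In 6 of the 33 every HB array was under the filter value. Cyp2d22 read 4288 to 6583 in BDCA_Normal and 27.5 to 178 in HB (-5.60 ± 0.28; limma adjusted p = 1.45e-14), and Cyp2c37, printed above, differed by -6.69 ± 0.53. Cyp2b10 (-0.67), Cyp2c55 (-0.87), Cyp2u1 (-0.30) and Cyp4a12a (-3.27) did not pass. Related cytochromes share sequence, so a probe set can read more than 1 of them. Of 41 conjugating and redox enzymes 37 fell (90.2%, beside 22.4% of all genes, median -4.14). In 4 of the 41 every HB array was under the filter value. The sulfotransferase Sult1b1 fell by 5.52 and the glutathione transferase Gstz1 by 3.48 ± 0.20, and Gsta4 (0.43) and Gstm5 (0.20) did not pass.

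Of 33 tested genes of nitrogen and amino acid metabolism 27 fell (81.8%, beside 22.4% of all genes) and 5 rose (15.2%, beside 34.1%). In 3 of the 33 every HB array was under the filter value, and all 3 were called lower. Otc read 3201 to 13757 in BDCA_Normal and 4.73 to 59.2 in HB (-7.90 ± 0.54; limma adjusted p = 3.43e-12), Arg1, arginase, differed by -6.80 ± 0.55, Gnmt and Bhmt, of the methionine cycle, by -7.72 and -7.26, and Haao and Fah, of tryptophan and tyrosine breakdown, by -7.20 and -3.67. The 5 that rose encode enzymes of serine, one-carbon and asparagine synthesis: Phgdh by 5.00, Psat1 by 4.26, Psph by 0.82, Mthfd2 by 2.42 and Asns by 4.48. Other genes of synthesis fell, Shmt2, a serine hydroxymethyltransferase of the mitochondrion, by 1.65 and Mat1a by 8.48.

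Bile acid genes fell in 22 of 23 tested members (95.7%, beside 22.4% of all genes), with a median of -5.00. Among them Cyp7a1, the rate-limiting enzyme of bile acid synthesis, fell by 6.38, Akr1d1 by 7.28 and the uptake carrier Slc10a1 by 5.83 ± 0.30. Abcc4, an efflux pump, was at 0.91 and did not pass. In 2 of the 23 every HB array was under the filter value, and both were called lower. Fatty acid oxidation genes fell in 27 of 28 (96.4%, beside 22.4%, median -2.44), from Acadm at -2.32 ± 0.20 to the fatty acid carrier Cd36 at -6.01 ± 0.37. Of 32 genes of lipid synthesis 25 fell (78.1%, beside 22.4%), including the regulators Insig1 (-3.26) and Mlxipl (-5.50). Only the desaturase Scd2 rose, by 3.83, while Scd1, the main desaturase of liver, fell by 3.01. Gluconeogenesis and glycogen genes fell in 14 of 16 (87.5%, beside 22.4%), with Fbp1 at -7.24 ± 0.38, and the mitochondrial Pck2 rose by 1.56 where cytosolic Pck1 fell.

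Glycolysis and hypoxia genes rose in 12 of 22 (54.5%, beside 34.1% of all genes) and fell in 4 (18.2%, beside 22.4%), with a median of 0.96. In 1 of the 22 every BDCA_Normal array was under the filter value, and it was called higher. Pkm, the pyruvate kinase of proliferating tissue, read 9729 to 18204 in HB and 412 to 1878 in BDCA_Normal (3.75 ± 0.37; limma adjusted p = 3.25e-09), while Pklr, the liver form, fell by 3.84. Hk1 and Hk2, hexokinases, rose by 2.66 and 2.56 and Eno2, the neuronal enolase, by 4.73. Of the genes best known for induction by low oxygen, Ndrg1 (1.92) and Ankrd37 (1.37) rose, Pdk1 (-1.47), Bnip3 (-1.06) and Adm (-1.22) fell, and Vegfa, Car9 and Egln3 did not pass.

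The respiratory chain fell by less, in 34 of 38 tested members (89.5%, beside 22.4% of all genes) with a median of -0.89. Uqcrq, of complex III, fell from a median of 7875 to 1749 (-2.11 ± 0.19; limma adjusted p = 6.04e-10), Sdhb, of complex II, by 1.51 and Ndufa4 by 1.3. Ribosomal proteins showed no common shift, with 6 of 33 higher (18.2%, beside 34.1% of all genes) and 4 lower (12.1%, beside 22.4%). Their median of 0.01 became 0.58 after quantile normalization and -0.31 after centring on the tested genes. Rpl14 rose by 2.07 ± 0.41 and Rps2 fell by 0.52. Many ribosomal genes have processed copies in the genome, and their probe sets can read more than 1. Of 20 genes of endoplasmic reticulum stress 6 fell (30%, beside 22.4% of all genes) and 2 rose (10%, beside 34.1%), with a median of -0.41. The chaperone Calr, at -1.33, and the factor Xbp1, at -1.26, were among the falls, and Ddit3 (1.41) and Atf3 (1.38) were the rises.

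Markers of resident macrophages fell in 17 of 19 tested members (89.5%, beside 22.4% of all genes, median -2.74). In 3 of the 19 every HB array was under the filter value. Cd5l, a secreted macrophage protein, read 2710 to 7612 in BDCA_Normal and 1.89 to 148 in HB (-6.68 ± 0.59; limma adjusted p = 4.57e-10), Vsig4, a complement receptor, fell by 6.16, Clec4f, the Kupffer cell lectin, by 4.65 and Csf1r by 3.52 ± 0.36. Cd68, a broader macrophage marker, fell by 0.71, and Adgre1, at -1.19, did not pass.

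Endothelial genes fell in 13 of 19 tested members (68.4%, beside 22.4% of all genes) and rose in 1. In 3 of the 19 every HB array was under the filter value. Among the falls were Stab2, a scavenger receptor of liver sinusoids, at -5.15 ± 0.30 from a median of 3296 to 73.6 (limma adjusted p = 1.94e-13), Clec4g at -6.50, Dnase1l3 at -6.09 and Lyve1 at -4.27. The broader endothelial genes Kdr (-1.89), Tek (-2.70) and Plvap (-2.58) fell as well, whereas Pecam1 (-0.39), Cdh5 (0.71), Emcn (0.02), Cd34 (0.48) and Tie1 (0.50) did not pass. Of 16 stellate cell genes 9 fell (56.2%, beside 22.4% of all genes) and 2 rose (12.5%, beside 34.1%). In 4 of the 16 every HB array was under the filter value. Lrat, which stores retinol, fell by 3.11 and Colec11 by 4.61, whereas Ngfr rose by 3.52 ± 0.59 and Acta2, smooth muscle actin, by 3.06.

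Of 12 tested lymphocyte genes 4 fell (33.3%, beside 22.4% of all genes) and 1 rose (8.33%, beside 34.1%). In 4 of the 12 every HB array was under the filter value, and 3 of these were called lower. For Cd4, the 1 that rose, every BDCA_Normal array was under it. Such genes entered the test only through brighter arrays of other groups. Ighm fell by 4.89 ± 0.68, Ptprc by 1.93 and Cd3e by 1.65, while Cd4 rose by 3.05 ± 0.74 (limma adjusted p = 0.00111), from at most 24.9 in BDCA_Normal to 20.2 to 1242 in HB, with Cd3g (0.26) and Cd2 (0.08) not past the threshold. Genes of antigen presentation fell in 11 of 16 (68.8%, beside 22.4% of all genes), with H2-K1 at -2.28 ± 0.19 and Nlrc5, the activator of class I genes, at -3.18 ± 0.41. Interferon-response genes fell in 11 of 17 (64.7%, beside 22.4% of all genes, median -1.21). Of 8 granulocyte genes 4 fell (50%, beside 22.4% of all genes), with Lcn2, which hepatocytes also make, at -7.16 ± 0.81. In 3 of the 8 every HB array was under the filter value, and 1 of these was called lower. Of 5 red cell genes 3 fell (60%, beside 22.4% of all genes), with the globin Hbb-b2 at -1.57. Both lists are short.

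The liver groups used as background differed little from each other. Between BDCA_Normal and Vehicle_Normal, 14 of 14086 genes passed (0.0994%; limma), 11 higher in BDCA_Normal (0.0781%), among them the metallothionein Mt2, and 3 lower (0.0213%). Against HCC, HB differed in 7119 genes (50.5%). This comparison shares the HB arrays, so its values are given beside the first ones without an overlap. For Islr the difference from HCC was 6.69 ± 0.45, for Ptn 6.89 ± 0.51, for Hoxd9 7.35, for Wif1 7.11, for Cyp3a25 -7.46, for Cps1 -7.68 and for Hnf4a -5.50. HCC medians for Cyp3a25, Cps1 and Hnf4a were 7329, 13685 and 11885, and for Islr, Ptn and Hoxd9 they were 75.4, 115 and 5.26. For genes of the sexually dimorphic liver list, 13 of 16 fell against BDCA_Normal (81.2%, beside 22.4% of all genes, median -5.77) and 11 against HCC (beside 21.6% of all genes, median -2.93). In 6 of the 16 every HB array was under the filter value, and 4 of these were called lower against BDCA_Normal. The list's mean was lowest in BDCA_Normal replicate 6, the array with the other sex-linked pattern. It was 9.45 there against 9.67 to 11.16 in the rest of that group (log2). Sult2a8, a bile acid sulfotransferase of this list, was at -5.93 against BDCA_Normal and -1.72 against HCC, with a median of 62.7 in HCC and 2276 in BDCA_Normal.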

How the data were processed

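Total RNA of frozen liver tissue was amplified from 10 ng, labelled with biotin and hybridised to 1 array per sample, per the labels' protocols. The deposited values are intensities on a linear scale, made by the authors with MAS5 per the submitters' processing notes, and every array had a 2% trimmed mean of 500. The version and the raw images were not used here.

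Of 45101 probe sets, 34945 had 1 gene, 932 several, 9160 none, and 64 were controls. Gene names came from GEO's platform annotation, and 34741 of the named probe sets matched a RefSeq gene ID. Probe sets needed at least 6 arrays above the 40th percentile of the whole table (66.3), and each gene was read from its brightest remaining probe set. The 5836 kept probe sets without a single gene were tested separately (1997 higher, 668 lower).

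HCC replicates 3 and 4 agreed far more closely than other pairs (scaled median absolute deviation 0.166 against at least 0.295, log2) and were averaged as 1 sample. A model with 1 mean for each of the 4 groups was fitted to the 23 samples in limma 3.58.1 (R 4.3.3) with variances that followed intensity. Two-sided p-values were adjusted (Benjamini-Hochberg) across the 14086 genes, with a threshold of 0.05. In simulated data of 14086 genes, 100 were changed by 1 and 100 by 2 on the log2 scale, and 22% and 78% of them were recovered. The comparison itself called 7964 genes, a far larger share. The adjusted threshold was therefore stricter in the simulation, and its rates do not give the power of this comparison. The number of arrays limits the precision. Same-numbered HB and BDCA_Normal arrays did not deviate together (r -0.113 to 0.076), so the numbers were not taken to pair them.

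The genes named were the 10 largest called changes in each direction without overlap, up to 4 members of each list by adjusted p, a set of markers, the 5 in each direction with the largest difference from HCC among those, and the 5 in each direction with the smallest error relative to their difference. Other list members are named for their role, after their values were seen. The comparison, the lists and the alternatives were chosen with earlier results of these data known. Promoters came from RefSeq (GRCm38.p6). Plots used matplotlib 3.10.9 under Python 3.11.15.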

Additional observations from a re-analysis of the deposited data

Results flagged for a closer look

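In each of 201 named genes the highest and lowest array of HB and of BDCA_Normal was compared with the rest of its group, and 29 arrays in 26 genes lay apart by more than Dixon's 95% limit allows; chance alone gives about 1 such case in 20 of the 402 groups tested. No cause was tested for any of them.

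HB replicate 4 was the array apart in 6 genes. It was high for liver genes, with Cps1 at 1234.4 (0.722 to 24.2 in the other HB arrays), Cyp2a12 at 249 (1.17 to 15.9) and Glul at 25343 (8764 to 12662), and for Pla2g2a at 20870.5 (4944 to 7828). It was low for Fzd6 at 3525.6 (4184 to 4554) and for the thrombospondin Thbs2 at 720.0 (1925 to 3386). HB replicate 5 was high for Upp2 at 37.0 (0.25 to 5.24) and for the complement gene C8g at 471 (80.2 to 142). HB replicate 3 was high for Sult2a8 at 48.5 (2.00 to 4.66) and for Alas2, of haem synthesis in red cells, at 1053 (208 to 380). HB replicate 1 was high for Gstz1 at 2061 (1031 to 1307) and for the interferon-induced Mx2 at 56.5 (1.92 to 12). HB replicate 2 was low for the endothelial receptor Gpr182 at 96.3 (191 to 255), and HB replicate 6 for coagulation factor F7 at 30.5 (51.7 to 67.2).

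BDCA_Normal replicate 6 was the array apart in 7 genes. Xist read 10449 there (7.47 to 97.9 in the other 5), and the Y-linked Eif2s3y and Kdm5d read 9.46 (1735 to 2669) and 16.1 (690.0 to 1100). The same array was low for Cyp3a25 at 10428 (17723 to 23853), Cyp2a12 at 3827 (8805 to 12522), Cps1 at 8902 (18937 to 29685) and Arg1 at 3090 (12018 to 18699). BDCA_Normal replicate 1 was low for Serpinc1, antithrombin, at 10257 (14286 to 17298), Haao at 5483 (8496 to 10737), Insig1 at 4694 (11631 to 16547) and Elovl2, a fatty acid elongase, at 2829 (10179 to 13975), and high for Cdkn1c at 69.6 (4.87 to 18.5). BDCA_Normal replicate 4 was high for Ezh2 at 314 (131 to 176) and low for Fas at 39.8 (265 to 662), and BDCA_Normal replicate 3 was low for Thbs2 at 7.75 (48.4 to 99.1).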

How the results depend on the processing

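The counts of genes called stayed within 1.5 times under every alternative except centring each array on the median of all probe sets. That median itself differed between the groups, with a mean of 165 in HB and 102 in BDCA_Normal. This centring gave 2356 higher and 5159 lower against BDCA_Normal, and 1994 and 4980 against HCC. Centring on the tested genes, added after the data were seen, gave 3420 and 4161 against BDCA_Normal. Leaving out single arrays gave 4499 to 4789 higher and 3003 to 3126 lower against BDCA_Normal. A replicate block gave 4610 higher and 3042 lower, and the numbers showed no pairing in the data; it moved 1 named gene, Kdm5d, past the threshold (1.46, limma adjusted p = 0.0239). No other named gene changed its call under the block.

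Centring on all probe sets lowered list medians, to 3.29 for Wnt targets, 0.08 for Wnt components, -0.53 for Hox genes, 1.35 for embryonic growth, 0.13 for growth factors, 1.54 for neural genes, -0.02 for matrix, 0.57 for DNA replication, 0.73 for chromatin, -0.06 for p53 targets, 0.38 for Notch and hedgehog, 0.92 for MAPK output, 1.52 for biliary genes, -4.54 for liver transcription factors, -5.86 for urea and amino acid genes, -3.07 for fatty acid oxidation, -1.04 for endoplasmic reticulum stress, -1.52 for the respiratory chain, -0.62 for ribosomal proteins, -3.38 for macrophage, -3.21 for endothelial and -1.13 for lymphocyte markers and -1.85 for interferon genes. Centring on the tested genes moved Wnt components to 0.39, growth factors to 0.44, chromatin to 1.04, endoplasmic reticulum stress to -0.73, the respiratory chain to -1.21 and ribosomal proteins to -0.31. Quantile normalization moved Wnt components to 0.33, Hox genes to -0.41, DNA replication to 0.71, the respiratory chain to -0.42, ribosomal proteins to 0.58 and biliary genes to 1.57. A pseudocount of 64 moved Wnt targets to 2.77, chromatin to 1.13, MAPK output to 1.16, periportal genes to -5.21, sexually dimorphic genes to -4.34, biliary genes to 1.52, endothelial markers to -1.92 and stellate markers to -1.20, and 1 moved Notch and hedgehog to 1.38. The stricter filter, which tests fewer genes, moved Hox genes to 5.94, embryonic growth to 2.55, neural genes to 3.85, Notch and hedgehog to 1.66, lymphocyte markers to -2.28 and granulocyte markers to -3.79. The mean of all probe sets moved ribosomal proteins to 0.36 and sexually dimorphic genes to -4.45. Without HB replicates 4 and 5, Wnt targets were at 3.09 and pericentral genes at -5.98. Leaving out single arrays gave 3.42 to 3.95 for Wnt targets. The Gapdh 3' to 5' ratio differed by -0.413 to -0.184 (log2) when single arrays were left out. Its unadjusted p was 0.0411 without BDCA_Normal replicate 1 and 0.121 with all arrays (exact permutation test). No adjusted p was computed with arrays left out.

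Of single named genes, Rpl7 turned to -0.01 against BDCA_Normal and -0.24 against HCC with centring on all probe sets, and Atp5g1 to 0.02 against HCC with the mean of its probe sets; the cause was not tested. In 187 of 201 named genes the call against BDCA_Normal held under every alternative that could be fitted, and 14 changed it in at least 1 (Afp, Atp5g1, Ctnnb1, Dlk1, Epcam, Glul, Kdm5d, Krt19, Lgr5, Mycn, Rpl7, Rps19, Slc4a1 and Zmat3). Calls of Zmat3 (0.97) and Rps19 (0.15) were lost with centring on all probe sets, that of Atp5g1 (-0.36) and of Epcam (1.36) with the mean of probe sets. Genes near background, 88 of the called named genes, have folds that depend on the pseudocount.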
